A study of Mus musculus with 15 samples.

Results

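Nuclear genes of the mitochondrial respiratory chain were described in livers of fasted mice, comparing animals given a hepatocyte-directed Cre virus against floxed Gata4 with animals given an empty virus. Members were the protein coding genes whose symbol begins with Nduf followed by a, b, c, s or v, with Uqcr, with Cox followed by a digit from 4 to 8, or with Atp5, together with Sdha, Sdhb, Sdhc and Sdhd. This symbol rule used no measured value and gave 92 genes of 24965, with no symbol on more than 1 row. By role these were 37 subunits of complex I, 4 of complex II, 8 of complex III, 15 of complex IV, 17 of complex V, 8 assembly factors of complex I (the Ndufaf genes) and 3 others. The others were Cox5b-ps, which is listed as protein coding but named as a pseudogene, the supercomplex factor Cox7a2l, and Ndufa4l2, a paralogue of Ndufa4. Ndufa4, named for complex I, was placed with complex IV, in which its product is now known to sit.

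All mice were male C57BL/6J animals of 9 weeks with the genotype Gata4fl/fl, so every group carried the floxed alleles and every animal had received a virus. At 8 weeks they were given AAV8-Tbg-Cre, with Cre under a promoter active in hepatocytes (Gata4LKO), or Empty AAV8 (Control), and they were killed 7 days later. Control and Gata4LKO livers numbered 4 and 4 in the Fasted condition and 4 and 3 in the Refed condition. A fast lasted 12 h, and refeeding was 12 h of a high-sucrose diet (69% sucrose, 10% fat) after such a fast. Because the control virus was empty, an effect of Cre and an effect of losing Gata4 cannot be told apart. In the titles all animals of a group share 1 number that no other group has, and its meaning is not given. Anything that number marks, such as a cage or litter, cannot be told apart from the group, and p-values below measure only the spread between these samples.

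The respiratory chain passes electrons from NADH (complex I) and from succinate (complex II) through ubiquinone, complex III, cytochrome c and complex IV to oxygen. Complexes I, III and IV pump protons across the inner mitochondrial membrane, and complex V, the ATP synthase, makes ATP from the gradient. Hepatocytes are rich in mitochondria and rely on the chain in fasting, when fatty acid oxidation feeds it and gluconeogenesis consumes ATP. Most subunits are encoded in the nucleus and a few in mitochondrial DNA (mtDNA), so that assembly needs the products of both genomes.

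For each gene there was 1 mean over the 15 libraries, 1 log2 fold change with its standard error (SE), a Wald p and an adjusted p, so values of single livers cannot be given. A normalized count is a read count divided by its library's size factor. Relative size factors, read from genes with a single read, lay between 0.912 and 1.11, and the means summed to 1.80e+07. The header names no groups. Single reads in 4 libraries gave a log2 fold change of 0.67, those in 4 others -0.78, and those in the other 4 and 3 libraries about -0.05. Of 16 readings computed, a model with an interaction term, whose reference was the fasted Control group, gave these estimates within 3.85e-09 for both of its simple contrasts, and the next reading missed them by 4.37e-05. Those contrasts are Gata4LKO against Control among fasted livers and Refed against Fasted among control livers. Numerically they cannot be told apart, since the groups have equal sizes. The genotype contrast was taken because the result is named for genotype, and each comparison and direction below rests on that. Pck1, a gluconeogenic enzyme gene that feeding is known to lower, had a mean of 38175 normalized counts and stood at 0.01 ± 0.82 (SE; interval -1.59 to 1.61) in the authors' deposited table. Its estimate was thus near 0, with an interval wide in both directions. Gata4 (ENSMUSG00000021944) was not lower in fasted livers labelled Gata4LKO: the authors' deposited table puts its log2 fold change at 0.31 ± 0.15 (SE), adjusted p 0.361 by the DESeq2 Wald test. Which exons were floxed is not stated, and a gene-level mean is no check of an exon deletion. Log2 fold changes below are livers labelled Gata4LKO minus livers labelled Control, both fasted.

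Hepatocyte markers were abundant (7 of 8 listed were found), and 4 listed genes of brown adipose tissue and muscle were found with means of at most 7.44 normalized counts and no adjusted p. Among markers of cells in or near the liver, Apoa1 (hepatocyte list, -0.48 ± 0.11) and Alas2 (red blood cell list, -0.41 ± 0.12) were called lower in the authors' deposited table, and 0 were called in the Kupffer cell, endothelial, stellate, cholangiocyte and lymphocyte lists. Of all tested genes 2.19% were called. Only 1 of 5 lymphocyte genes was tested (Cd3e, -1.10 ± 0.55 (SE) in the authors' deposited table) and 4 of 5 cholangiocyte genes, so 0 called there says little. All 8 Kupffer cell and macrophage estimates lay below 0, with a median of -0.28. An unadjusted DESeq2 Wald p under 0.05 was found for 1 of these 8, where 11.4% of all tested genes had one. In the hepatocyte list 3 of 7 genes and in the endothelial list 2 of 6 had one. In whole liver, fewer cells of a type and less RNA per cell cannot be told apart, and the part of these cells in the values below was not tested.

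Promoter letters are shown first, for the members with the smallest p and for members that carry letters of the GATA family. RefSeq promoter windows (GRCm38.p6, 250 bases before to 50 after the start) were matched by symbol for 76 of the 92 members. Both strands were searched for motifs of 4 kinds of factor. For GATA factors the letters were AGATAA, with the spelling TGATAA counted as well. For ETS factors such as GABP they were CCGGAAG, and for YY1 they were AAGATGGCG. The NRF1 motif (nuclear respiratory factor 1) was searched too. The ETS motif ends with the letters that begin the YY1 motif, so those matches can overlap. GATA letters were in 13 member windows (17.1%), against 10.4% of 10019 windows of tested genes and 19.0% of all 27025 windows. The NRF1 motif was in 18 member windows (23.7%), against 10.4% of tested genes' and 4.78% of all windows. ETS letters were in 18 (23.7%, against 18.3% and 9.12%) and YY1 letters in 7 (9.21%, against 3.24% and 1.49%). A match describes letters and is not a binding site. The windows with GATA letters belonged to 4 complex I genes (Ndufa12, Ndufa9, Ndufc2 and Ndufs5), 3 of complex III (Uqcr10, Uqcr11 and Uqcrc1), 3 of complex IV (Cox6b1, Cox7a1 and Cox7c) and 3 of complex V (Atp5b, Atp5g1 and Atp5g3). Printed 5′ to 3′ are the bases before the start of Ndufc2 (chr7:97399753-97400002, plus strand), Ndufab1 (chr7:122101887-122102098, minus), Ndufs5 (chr4:123718203-123718436, minus) and Atp5g3 (chr2:73911327-73911576, minus). Capitals mark motif letters on either strand.
Ndufc2: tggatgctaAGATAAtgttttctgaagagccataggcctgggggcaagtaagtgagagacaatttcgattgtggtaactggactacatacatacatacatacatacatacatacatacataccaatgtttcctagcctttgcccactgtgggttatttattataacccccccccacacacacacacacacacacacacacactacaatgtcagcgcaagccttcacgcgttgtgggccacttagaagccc
Ndufab1: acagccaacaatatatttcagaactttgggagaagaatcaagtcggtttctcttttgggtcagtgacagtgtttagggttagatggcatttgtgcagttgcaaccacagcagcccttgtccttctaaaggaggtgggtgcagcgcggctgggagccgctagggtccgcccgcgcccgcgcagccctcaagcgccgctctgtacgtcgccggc
Ndufs5: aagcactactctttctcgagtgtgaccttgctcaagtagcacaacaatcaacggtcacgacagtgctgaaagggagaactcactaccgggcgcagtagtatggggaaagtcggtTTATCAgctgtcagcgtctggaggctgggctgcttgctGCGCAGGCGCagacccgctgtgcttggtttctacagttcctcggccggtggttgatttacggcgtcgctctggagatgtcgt
Atp5g3: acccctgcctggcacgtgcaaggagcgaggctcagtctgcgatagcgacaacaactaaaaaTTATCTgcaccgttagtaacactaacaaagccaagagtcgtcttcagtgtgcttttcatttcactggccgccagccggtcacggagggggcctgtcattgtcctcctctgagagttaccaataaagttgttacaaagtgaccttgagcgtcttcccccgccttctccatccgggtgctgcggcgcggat
Ndufc2 and Atp5g3 have GATA letters in capitals, Ndufs5 has a GATA and an NRF1 match, and Ndufab1 has no match in the bases printed. The window of Atp5g3 also has an NRF1 match, which is not wholly within the bases printed.

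No member of the respiratory chain was called in either direction. By the DESeq2 Wald p that the authors adjusted after Benjamini and Hochberg (called at an adjusted p under 0.05), 0 of 87 members with an adjusted p passed, against 2.19% of all 13335 tested genes (0.585% higher and 1.6% lower). At that share a set of 87 genes can also hold no called gene, so the 0 alone does not set the members apart. An unadjusted p under 0.05 was found for 3 of the 87, where 11.4% of all tested genes had one. These were Ndufc2, Ndufab1 and Uqcrq, and the smallest adjusted p of a member was 0.129 in the authors' deposited table. The other 5 members, Cox4i2, Cox6b2, Cox7a1, Cox8b and Cox5b-ps, had means between 0.282 and 5.94 normalized counts and no adjusted p.

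The deposited SEs give a 95% interval for the change of each gene. These intervals are not adjusted for the number of genes and rest on the spread between these samples, so they set no bound on a knockout effect. Tested members had a median SE of 0.08 on the log2 scale, against 0.14 over all tested genes, and a median mean of 1050 normalized counts, against 236. The 95% interval lay inside 1.2-fold in both directions for 68 of 87 tested members (78.2%), inside 1.5-fold for 85 (97.7%) and inside 2-fold for 87. Over all tested genes these shares were 24.1%, 65.8% and 85.1%, and over tested genes with a mean of at least 100 they were 36.2%, 89.0% and 96.9%. All 77 tested structural subunits lay inside 1.5-fold. The tested members that did not were the assembly factor Ndufaf5 and Ndufa4l2, which had the lowest means among tested members. Of the 87 estimates 46 lay above and 41 below 0, with a median of 0.01 and an SD of 0.08, while all tested genes had a median of 0.01 and an SD of 0.33. The SD of the Wald statistic was 0.945 among members and 1.32 among all tested genes. Over tested genes with a mean of at least 100, the SD of the estimates was 0.23 and that of the Wald statistic 1.38.

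**Figure D1:**
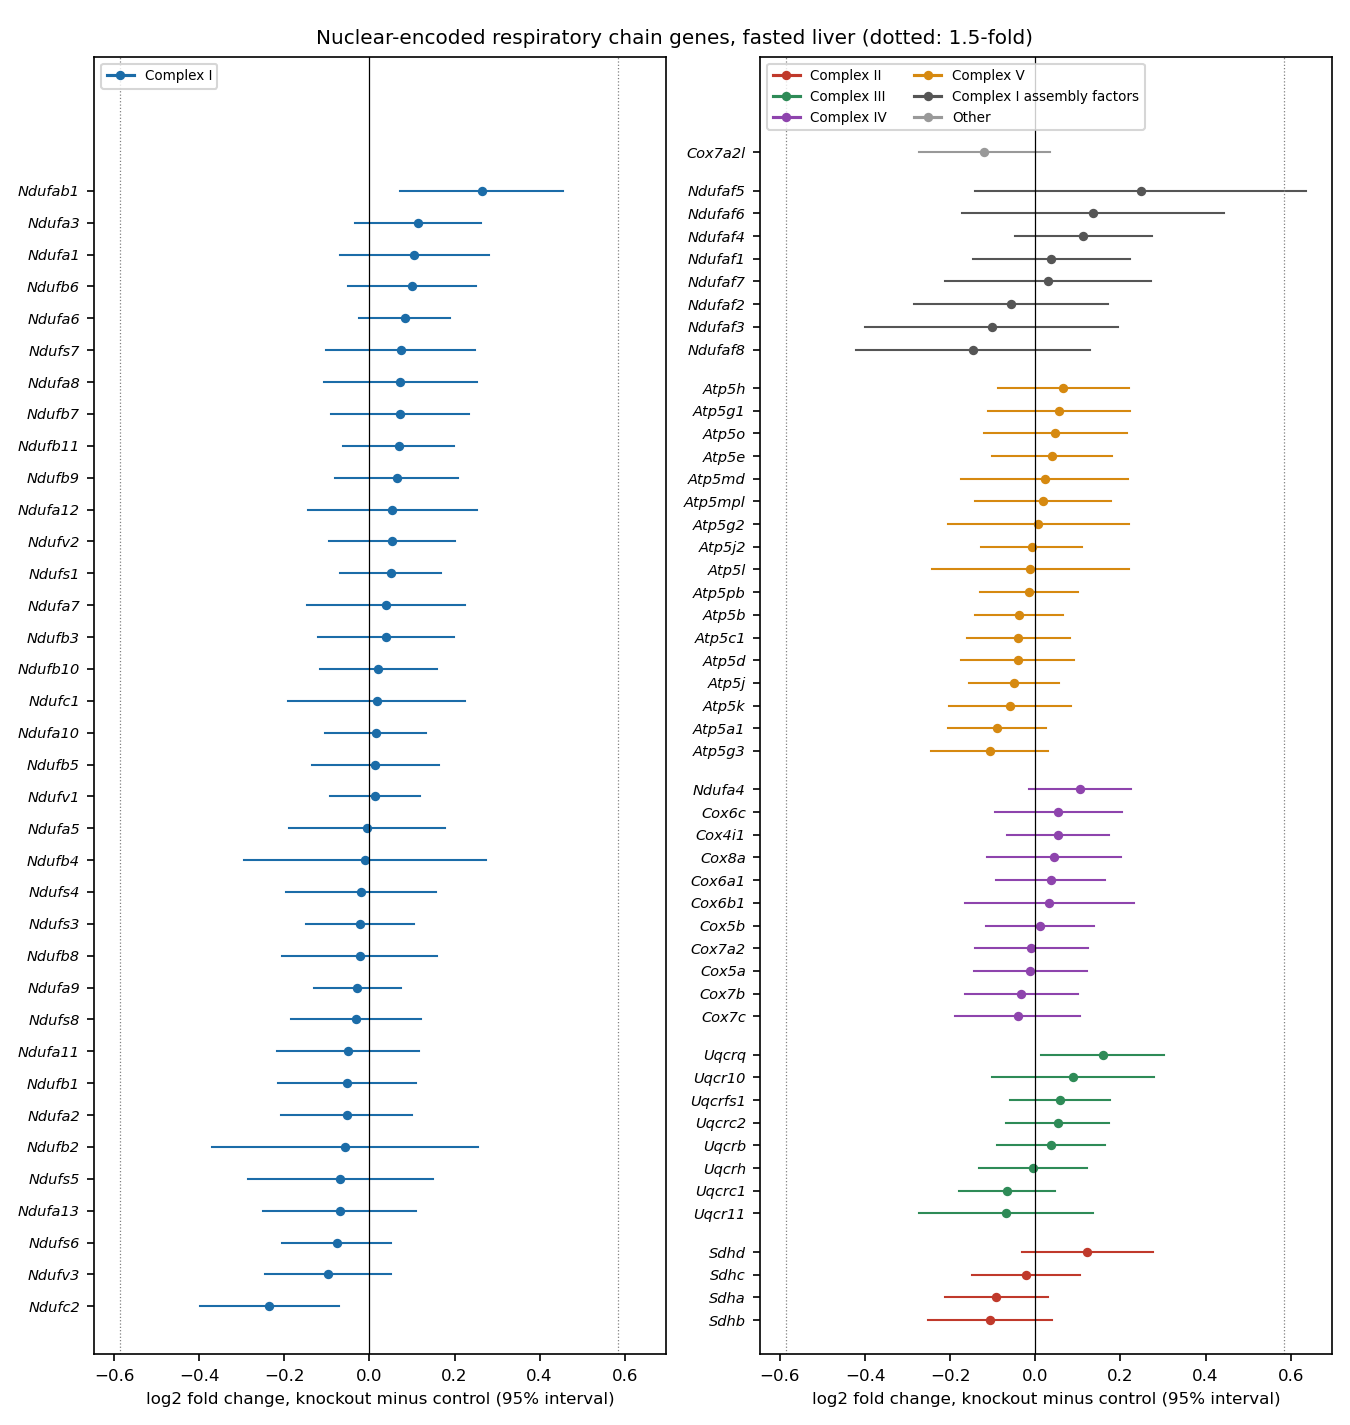
Log2 fold change (livers labelled knockout, Gata4LKO, minus control) of tested members by complex, with points for the estimate, lines for the 95% interval from the deposited SE and dotted lines at 1.5-fold. Ndufa4l2 (-0.99 to 0.63) and 1 complex I member are not drawn; the intervals of Ndufc2, Ndufab1 and Uqcrq are those that leave out 0.

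**Figure D2:**
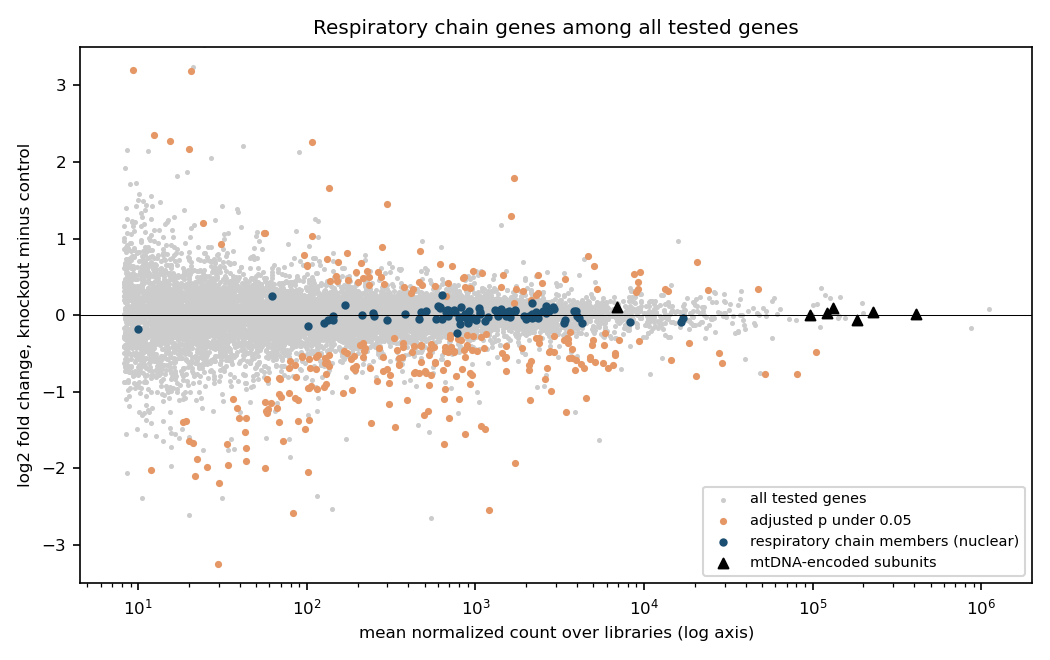
Log2 fold change (livers labelled knockout minus control) against the mean normalized count on a log axis for tested genes, with called genes, the 87 tested nuclear members and the 7 tested mtDNA-encoded subunits marked. Nuclear members lie between -0.23 and 0.26, and 7 genes beyond 3.5 in size are outside the plotted range.

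Complex I oxidises NADH. All 37 of its nuclear subunits under the rule were tested, 0 were called, and estimates ran from -0.23 to 0.26 around a median of 0.01, with 21 above and 16 below 0. The lowest was Ndufc2, an accessory subunit of the membrane arm (ENSMUSG00000030647, mm10 chr7:97400003-97407802, plus strand), whose promoter is printed above. It had a mean of 773 normalized counts and stood at -0.23 ± 0.08 (SE; interval -0.40 to -0.07) in the authors' deposited table, with a DESeq2 Wald p of 0.00487 and an adjusted p of 0.129. The highest was Ndufab1, the mitochondrial acyl carrier protein, which is part of complex I and also serves lipoic acid and iron-sulfur cluster synthesis (ENSMUSG00000030869, mm10 chr7:122085403-122101886, minus strand). Its mean was 637 normalized counts, and the authors' deposited table gives 0.26 ± 0.10 (SE; interval 0.07 to 0.46), with a DESeq2 Wald p of 0.00677 and an adjusted p of 0.155. Neither passed the threshold, and their signs were opposite.

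Core subunits of complex I carry the flavin, the iron-sulfur clusters and the ubiquinone site. On the log2 scale the authors' deposited table has the NADH-binding Ndufv1 at 0.01 ± 0.05, its partner Ndufv2 at 0.05 ± 0.08 and the iron-sulfur subunit Ndufs1 at 0.05 ± 0.06 (SE). Nearer to ubiquinone, the authors' deposited table has Ndufs3 at -0.02 ± 0.06, Ndufs7 at 0.07 ± 0.09 and Ndufs8 at -0.03 ± 0.08 (SE). None of these had an unadjusted p under 0.05, and signs were mixed.

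Accessory subunits were read by the module in which they sit. The N module, which oxidises NADH, had a median of 0.03 over 10 genes, core ones included. Its accessory genes in the authors' deposited table were Ndufa2 at -0.05 ± 0.08, Ndufa6 at 0.08 ± 0.05, Ndufa7 at 0.04 ± 0.09, Ndufa12 at 0.05 ± 0.10, Ndufs4 at -0.02 ± 0.09, Ndufs6 at -0.08 ± 0.07 and Ndufv3 at -0.10 ± 0.08 (SE). In the ubiquinone-binding Q module, as grouped here, the median was -0.01 over 5 genes, and the accessory gene placed in it, Ndufa5, was at -0.01 ± 0.09 (SE), per the authors' deposited table. Both modules had all intervals inside 1.2-fold. Ndufa9 lies in the matrix arm near the ubiquinone site and is often counted with the Q module. Here it was grouped with the proximal part of the membrane arm, which so defined had a median of -0.01 over 10 genes. The medians of the Q module and of the proximal part rest on that placement. Besides Ndufc2, the authors' deposited table lists Ndufa1 at 0.11 ± 0.09, Ndufa3 at 0.11 ± 0.08, Ndufa8 at 0.07 ± 0.09, Ndufa9 at -0.03 ± 0.05, Ndufa10 at 0.01 ± 0.06, Ndufa11 at -0.05 ± 0.08, Ndufa13 at -0.07 ± 0.09, Ndufc1 at 0.02 ± 0.11 and Ndufs5 at -0.07 ± 0.11 (SE). For the distal part the median was 0.03 over 12 genes. Besides Ndufab1, the authors' deposited table lists Ndufb1 at -0.05 ± 0.08, Ndufb2 at -0.06 ± 0.16, Ndufb3 at 0.04 ± 0.08, Ndufb4 at -0.01 ± 0.15, Ndufb5 at 0.01 ± 0.08, Ndufb6 at 0.10 ± 0.08, Ndufb7 at 0.07 ± 0.08, Ndufb8 at -0.02 ± 0.09, Ndufb9 at 0.06 ± 0.07, Ndufb10 at 0.02 ± 0.07 and Ndufb11 at 0.07 ± 0.07 (SE). Apart from Ndufc2 and Ndufab1, every complex I estimate lay within 2 SE of 0.

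Ndufaf assembly factors help to build complex I and are not part of the finished enzyme. All 8 were tested and 0 called, with a median of 0.03 and a median SE of 0.13. The extremes in the authors' deposited table were Ndufaf8 at -0.15 ± 0.14 and Ndufaf5 at 0.25 ± 0.20 (SE), the latter with a mean of 61.7 normalized counts and an interval from -0.14 to 0.64. Ndufaf4 had the smallest p, 0.172 unadjusted and 0.682 adjusted by the DESeq2 Wald test, at 0.11 ± 0.08 (SE), per the authors' deposited table. The others, per the authors' deposited table, were Ndufaf1 at 0.04 ± 0.09, Ndufaf2 at -0.06 ± 0.12, Ndufaf3 at -0.10 ± 0.15, Ndufaf6 at 0.14 ± 0.16 and Ndufaf7 at 0.03 ± 0.12 (SE). Only 1 of the 8 intervals lay inside 1.2-fold, and the other 7 reached beyond it.

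Complex II, succinate dehydrogenase, joins the tricarboxylic acid cycle to the chain and has only nuclear subunits. Estimates in the authors' deposited table were -0.09 ± 0.06 for the flavoprotein Sdha, -0.11 ± 0.07 for the iron-sulfur subunit Sdhb, -0.02 ± 0.06 for the membrane anchor Sdhc and 0.12 ± 0.08 for the other anchor, Sdhd (SE). Of the 4, Sdhd alone lay above 0. It also had the smallest adjusted p, 0.605 by the DESeq2 Wald test, and none of the 4 was called.

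Complex III passes electrons from ubiquinol to cytochrome c. Its 8 members were tested, 0 were called, and the median was 0.04. Uqcrq, a small subunit (ENSMUSG00000044894, mm10 chr11:53427922-53430831, minus strand), was highest at 0.16 ± 0.07 (SE; interval 0.01 to 0.30) in the authors' deposited table, with a DESeq2 Wald p of 0.0311 that became 0.352 after adjustment. The Rieske iron-sulfur protein Uqcrfs1 was at 0.06 ± 0.06 and the core proteins Uqcrc1 and Uqcrc2 at -0.07 ± 0.06 and 0.05 ± 0.06 (SE), per the authors' deposited table. Small subunits in the authors' deposited table were Uqcr10 at 0.09 ± 0.10, Uqcr11 at -0.07 ± 0.10, Uqcrb at 0.04 ± 0.07 and Uqcrh at -0.01 ± 0.07 (SE). Cytochrome c1 (Cyc1), a catalytic subunit whose symbol is outside the rule, was at 0.00 ± 0.07 (SE) per the authors' deposited table.

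Complex IV, cytochrome c oxidase, has subunits with tissue-specific isoforms. Per kilobase of transcript, Cox4i1 had a mean of 5190 normalized counts and Cox4i2, a form known from lung, 0.921. Cox7a2 had 2052 per kilobase and the heart and muscle form Cox7a1 8.63. Cox8a had 2803 per kilobase and Cox8b 0.783, and Cox6b1 had 4255 against 9.43 for the testis form Cox6b2. Thus the widely expressed form of each pair made up nearly all of its signal. The low forms had SEs from 0.79 (Cox6b2) to 3.66 (Cox8b) in the authors' deposited table, and no change in them was measurable at this depth. Cox6a2, Cox7b2 and Cox8c are annotated genes but had no values under those symbols, so these isoforms could not be compared.

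The 11 tested subunits of complex IV had a median of 0.03, 0 were called, and all 11 intervals lay inside 1.2-fold. Ndufa4 was highest at 0.11 ± 0.06 (SE), per the authors' deposited table, with the smallest p (0.0849; 0.535 adjusted, DESeq2 Wald test), and Cox7c was lowest at -0.04 ± 0.08 (SE). Between these, the authors' deposited table has Cox4i1 at 0.05 ± 0.06, Cox5a at -0.01 ± 0.07, Cox5b at 0.01 ± 0.06, Cox6a1 at 0.04 ± 0.07, Cox6b1 at 0.03 ± 0.10 and Cox6c at 0.05 ± 0.08 (SE). Of the small subunits, the authors' deposited table has Cox7a2 at -0.01 ± 0.07, Cox7b at -0.03 ± 0.07 and Cox8a at 0.04 ± 0.08 (SE). Cox7a2l, which takes part in supercomplexes of complexes III and IV, stood at -0.12 ± 0.08 (SE) with an adjusted DESeq2 Wald p of 0.616 in the authors' deposited table. Ndufa4l2, known to respond to hypoxia, had a mean of 9.95 normalized counts and stood at -0.18 ± 0.41 (SE), per the authors' deposited table.

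Complex V had 17 tested members, 0 called, a median of -0.01, and all 17 intervals inside 1.2-fold. Its catalytic head (F1) in the authors' deposited table had Atp5a1 at -0.09 ± 0.06, Atp5b at -0.04 ± 0.05, Atp5c1 at -0.04 ± 0.06, Atp5d at -0.04 ± 0.07 and Atp5e at 0.04 ± 0.07 (SE), which are the alpha, beta, gamma, delta and epsilon subunits. Alpha and beta were the members of highest level per kilobase, 6727 and 8843 normalized counts. The peripheral stalk in the authors' deposited table had Atp5h at 0.07 ± 0.08, Atp5j at -0.05 ± 0.05, Atp5o at 0.05 ± 0.09 and Atp5pb at -0.01 ± 0.06 (SE). For the proton-conducting c-ring 3 genes encode the same mature protein, and the authors' deposited table has Atp5g1 at 0.06 ± 0.09, Atp5g2 at 0.01 ± 0.11 and Atp5g3 at -0.11 ± 0.07 (SE). Atp5g3 had the lowest estimate and the smallest adjusted p of complex V, 0.617 by the DESeq2 Wald test. Per kilobase, Atp5g3 had 5974 normalized counts, Atp5g1 1543 and Atp5g2 481. Small membrane subunits in the authors' deposited table were Atp5j2 at -0.01 ± 0.06, Atp5k at -0.06 ± 0.07, Atp5l at -0.01 ± 0.12, Atp5md at 0.02 ± 0.10 and Atp5mpl at 0.02 ± 0.08 (SE).

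Levels varied widely between members. Per kilobase of transcript (GENCODE M21, shortest principal transcript), the median was 985 normalized counts over complex I, 2477 over complex II, 2346 over complex III, 2152 over complex IV, 2470 over complex V and 148 over the Ndufaf factors. The complex IV median includes the 4 isoforms with no adjusted p, at 0.783 to 9.43 per kilobase, which pull it down. It therefore does not rank the tested subunits of complex IV below those of complexes II, III and V. Within complex I levels per kilobase ran from 148 (Ndufb4) to 2409 (Ndufa6), and within complex V from 462 (Atp5l) to 8843 (Atp5b). Complex III spanned 2013 (Uqcrfs1) to 5361 (Uqcrq) per kilobase. These levels are means over all 15 libraries, refed ones included, with no SD, and they depend on the transcript: with its longest principal transcript Uqcrq had 1427 and Atp5g1 195 per kilobase.

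**Figure D3:**
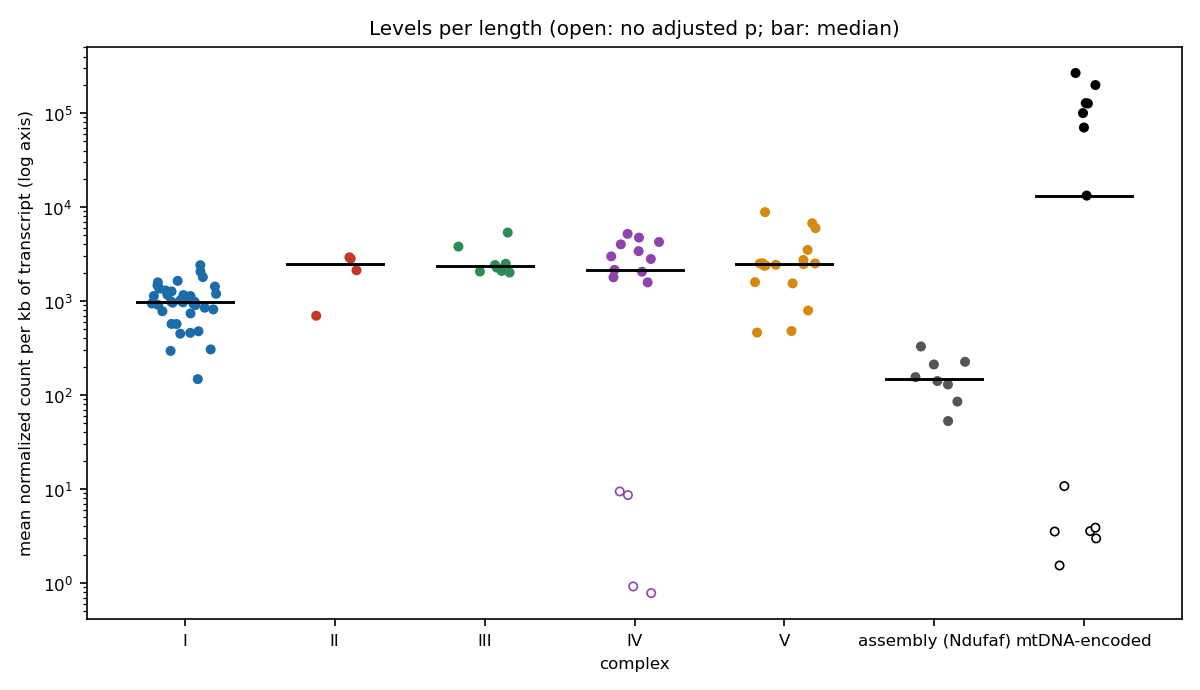
Mean normalized count over the 15 libraries per kilobase of transcript, on a log axis, for each subunit by complex, with points open where no adjusted p was given and a bar at the median. Complex I centres on 985 and complexes II to V on 2152 to 2477, while 6 mtDNA-encoded subunits lie between 1.54 and 10.8. The complex IV median includes its open points, which lie at 0.783 to 9.43.

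Counts of some members are uncertain because other annotated genes, pseudogenes among them, hold the same sequence. Of 92 members, 51 shared no 50-base stretch of the chosen transcript with another gene's transcripts, and 19 shared at least 20% of their stretches. The share was 100% for Atp5g2, 68.5% for Atp5l, 66.0% for Atp5g1, 53.0% for Cox7c and 50.5% for Atp5h. It was 31.2% for Ndufab1 (with Gm4459) and 0% for Ndufc2 and Uqcrq. Atp5o shared 35.5%, most often with another annotated protein coding gene that has the same symbol and is not among the members. Exons of 5 members (Ndufb2, Ndufb8, Ndufb9, Atp5g2 and Atp5o) overlapped another gene on the same strand and exons of 30 members a gene on the other strand. Levels per kilobase had a median of 960 among members at or above 20% and 1296 among the rest.

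Subunits encoded in mtDNA, which the symbol rule leaves out, fell into a high and a low set. Per kilobase, 7 of 13 had levels from 13247 (mt-Nd6) to 267052 (mt-Co1) normalized counts, and mt-Nd3, mt-Nd4l, mt-Co2, mt-Co3, mt-Atp6 and mt-Atp8 had 1.54 to 10.8. Of their 50-base stretches, mt-Co2 shared 100% with another annotated gene, mt-Co3 99.9%, mt-Atp6 99.5%, mt-Nd4l 98.8% and mt-Nd3 98.0%. The main matches (Gm28661, Gm28437, Gm10925, Gm10222 and Gm28438) are unprocessed pseudogenes side by side at mm10 chr1:24612407-24615565, with means from 0.196 to 3.85 normalized counts. The low gene mt-Atp8 shared 0% with annotated transcripts, and the high genes mt-Co1 and mt-Nd4 shared 51.1% and 62.2%. In mtDNA mt-Atp8 lies between mt-Co2 and mt-Atp6, whose main matches are Gm28661 and Gm10925. Between Gm10925 (ending at 24614651) and Gm28661 (starting at 24614885) no gene is annotated. Sequence outside annotated transcripts was not compared, so the 0% does not show that mt-Atp8 lacks a copy there. How reads with several positions were counted is not stated, and its part in the low values was not tested.

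**Figure D4:**
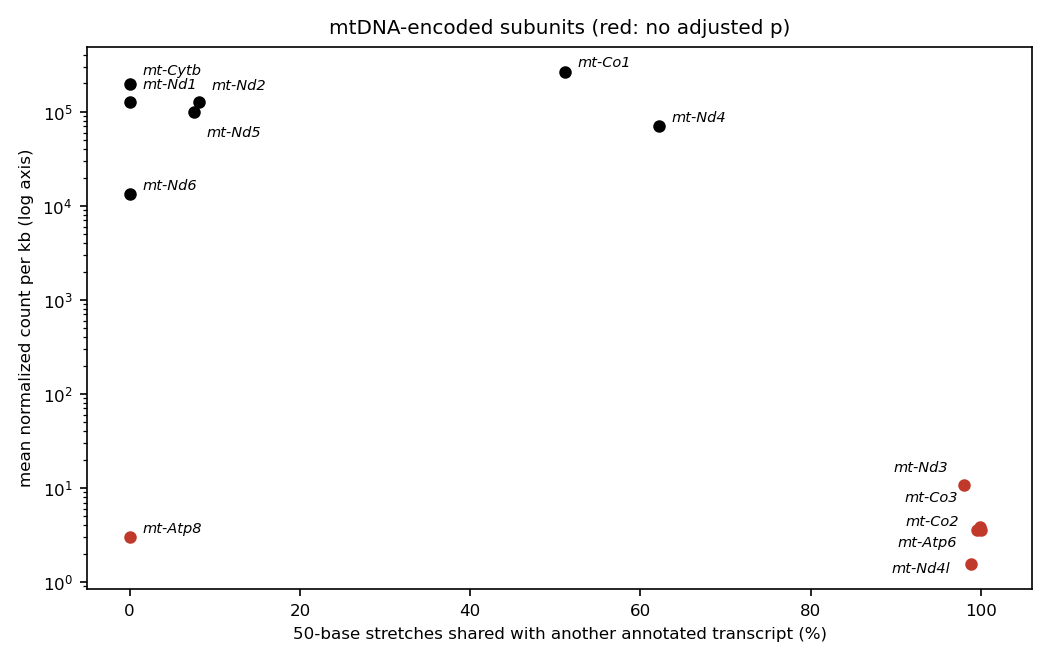
Mean normalized count per kilobase (log axis) of the 13 mtDNA-encoded subunits against the percent of their 50-base stretches found in another annotated gene's transcripts; red points had no adjusted p. The red points lie at 98.0% to 100% shared, except mt-Atp8 at 0%. Sequence outside annotated transcripts was not compared.

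Of the 7 mtDNA-encoded subunits in the high set 0 were called, with a median of 0.03, and 4 of 7 intervals lay inside 1.2-fold and 7 inside 1.5-fold. Complex I subunits in the authors' deposited table were mt-Nd1 at 0.03 ± 0.09, mt-Nd2 at 0.09 ± 0.11, mt-Nd4 at 0.01 ± 0.09, mt-Nd5 at -0.07 ± 0.10 and mt-Nd6 at 0.11 ± 0.09 (SE). mt-Co1, the catalytic subunit of complex IV, was at 0.02 ± 0.06 and mt-Cytb of complex III at 0.04 ± 0.10 (SE) per the authors' deposited table. mt-Nd6, read from the opposite strand of mtDNA, had the smallest p (0.237; 0.755 adjusted, DESeq2 Wald test). The mtDNA protein genes held 6.55% of all normalized counts, mt-Co1 alone 2.29%, and the 92 nuclear members 0.868%. Nearly all of the 6.55% came from the 7 genes in the high set, as the other 6 had means of at most 3.74 normalized counts.

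Other genes that serve the chain were read from lists, with 0 called in each, against 2.19% of all tested genes. At that share lists this short can easily hold no called gene, so the 0 sets none of them apart. Electron carriers and enzymes that feed ubiquinone had 20 tested genes, 12 above and 8 below 0, and a median of 0.01. Cytochrome c (Cycs) was at 0.00 ± 0.12, and Etfdh, which passes on electrons from fatty acid oxidation, at -0.01 ± 0.09 (SE) per the authors' deposited table. Etfb had the smallest p of that list (0.0710; 0.501 adjusted, DESeq2 Wald test), at 0.20 ± 0.11 (SE) per the authors' deposited table. Tricarboxylic acid cycle genes numbered 18, 11 above and 7 below 0, with a median of 0.01. There the smallest p was that of Pdha1, a pyruvate dehydrogenase subunit (0.148; 0.652 adjusted, DESeq2 Wald test), at 0.11 ± 0.07 (SE) per the authors' deposited table.

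Assembly factors outside the rule had 41 tested genes, 26 with estimates above and 15 below 0, and a median of 0.05, under their median SE of 0.11. An unadjusted DESeq2 Wald p under 0.05 was found for 3 of them, where 11.4% of all tested genes had one. Sco1, a copper chaperone of complex IV, was at 0.28 ± 0.11 (SE) with an adjusted DESeq2 Wald p of 0.183 in the authors' deposited table. The others, Coa3 and Coa5, also of complex IV and named after their values were seen, were at 0.26 ± 0.10 and 0.15 ± 0.07 (SE), per the authors' deposited table, with adjusted DESeq2 Wald p of 0.224 and 0.369. Further complex IV factors of the list lay on both sides of 0, more of them above than below. Of those above it the authors' deposited table has Cmc2 at 0.20 ± 0.16, Cox14 at 0.20 ± 0.13, Taco1 at 0.15 ± 0.09, Cox10 at 0.13 ± 0.11 and Cox15 at 0.12 ± 0.08 (SE). Of those below it the authors' deposited table has Cmc1 at -0.16 ± 0.11, Coa6 at -0.12 ± 0.14, Pet100 at -0.12 ± 0.12, Cox18 at -0.09 ± 0.14 and Surf1 at -0.05 ± 0.08 (SE). None of the 41 was called.

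Regulators of mitochondrial biogenesis and gene expression had 22 tested genes, 11 on each side of 0, with a median of 0.00. The coactivator Ppargc1a was poorly determined, at 0.26 ± 0.41 (SE; interval -0.55 to 1.08) per the authors' deposited table. Factors whose motifs were searched above, per the authors' deposited table, were Nrf1 at 0.21 ± 0.13, Gabpa at 0.05 ± 0.08 and Yy1 at 0.08 ± 0.08 (SE). The mtDNA transcription factor Tfam was at 0.10 ± 0.08, and Tfb1m, with the smallest p of the list (0.0869; 0.540 adjusted, DESeq2 Wald test), at -0.24 ± 0.14 (SE) per the authors' deposited table. Among 7 tested genes of uncoupling and adenine nucleotide exchange, 5 had estimates above 0. The smallest p there was that of Slc25a14 (0.267; 0.782 adjusted, DESeq2 Wald test), at 0.32 ± 0.29 (SE) per the authors' deposited table, and the exchanger Slc25a5 was at -0.04 ± 0.06 (SE).

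**Figure D5:**
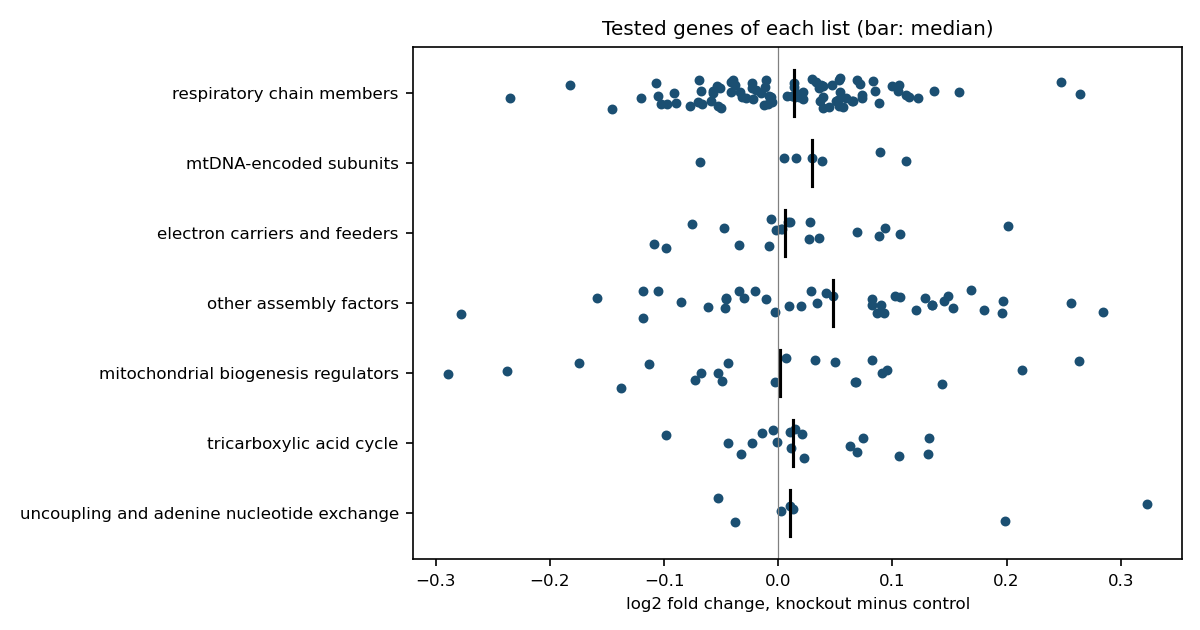
Log2 fold change (livers labelled knockout minus control) of the tested genes of each list, with a bar at the median. Medians lie between 0.00 and 0.05, and respiratory chain members run from -0.23 to 0.26.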

How the data were processed

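Liver RNA of 15 mice was sequenced from stranded libraries, per the labels' protocols. The submitters' processing notes name FastQC, STAR 2.6.0c, mm10 and DESeq2. No source used here gives the counter, its strand setting or the annotation. The only file analysed was the deposited genotype result. Its mean is a signal that the authors averaged over libraries after dividing counts by size factors, per the file headers. Effects and SEs are deposited as log2 values. A deposited Wald score matched effect over SE within 3.64e-14. Wald p-values are the authors', and their adjusted values match Benjamini-Hochberg over 13335 genes within 7.02e-15. The table was not refitted. Missing values stayed missing, and 11605 genes had a p with no adjusted p. Fits planned for per-sample values were therefore not made. Intervals (95%), medians and counts were computed in Python 3.11.15 with pandas 2.3.3. The code for adjustment and intervals was run on simulated estimates drawn with the deposited SEs, which is no check of those SEs. Contrasts were read from single-read genes by a ridge-penalised fit. Lengths and shared 50-base stretches came from GENCODE M21 (mm10), which held 92 of 92 members. Reads per library are not in the table, so depth is known only as relative size factors.

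Named genes were called members, each complex's extremes, smallest p and highest level, core subunits, isoform pairs and each list's smallest p, and other members were then given by value. For 1 complex I member the single values are not reported here, and it stays in the counts and medians. Members and lists were chosen with earlier results of these data known. Alternatives were other gene sets for the adjustment, thresholds of 0.1 and 0.01, minimum means, centring, a length correction and precision weighting.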

Additional observations from a re-analysis of the deposited data

How the results depend on the processing

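Under each alternative run, 0 members were called. The lowest adjusted DESeq2 Wald p of a member was 0.236 when every gene with a p entered the adjustment. It was 0.126 for a minimum mean of 10, 0.112 for a minimum mean of 100 and 0.126 for protein coding genes. Thresholds of 0.1 and 0.01 are no check, because the lowest deposited adjusted p, 0.129, lies above both and no call was possible. The median over all members ran from -0.0023 to 0.01, that of complex I from 0.00 to 0.02, of complex II from -0.07 to -0.03, of complex III from 0.03 to 0.05, of complex IV from 0.02 to 0.03 and of complex V from -0.04 to -0.01. Leaving out members with at least 20% shared stretches, and readjusting the other lists, were chosen after seeing the data. No paired analysis was possible because per-sample values are lacking, and leaving out single livers was not run for that reason.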

Other observations

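The ribosomal RNAs of mtDNA stood in no list and are named after their values were seen. On the log2 scale mt-Rnr1 was at 0.29 ± 0.16 and mt-Rnr2 at 0.32 ± 0.15 (SE) per the authors' deposited table, with adjusted DESeq2 Wald p of 0.517 and 0.361. Neither was called. The 7 mtDNA protein genes with an adjusted p lay between -0.07 and 0.11. Whether the ribosomal and protein transcripts differ in response was not tested.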
